A study of Arabidopsis thaliana with 2 samples.

Results

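The 10 ethylene response factors described here were chosen by name as stress-responsive members of the AP2/ERF family of transcription factors. They are ERF1A, ERF2, ERF4, ERF5, ERF6, ERF11, ERF104, ERF105, ERF109 and ORA47, and they make up 10 of 23519 nuclear loci with reads. Reads were summed over the transcript models of each locus, and each of the 10 had 1 listed model. Of the 10, 9 reached 5 CPM (reads scaled to library size) in at least 1 library, and ERF109 did not. RNA-seq was made from whole Arabidopsis thaliana seedlings, 12 days old, of the Col-0 accession, grown on plates of GM medium at 20 °C in long days with no treatment. There was 1 library of the wild type, called Col-0 here, and 1 of the genotype labelled FMO5-OE T1 in the same accession, called FMO5-OE here. OE was taken to mean overexpression, and FMO5 to mean FMO GS-OX5, a flavin-containing monooxygenase that S-oxygenates glucosinolates. The promoter of the construct, the meaning of T1 and the number of seedlings pooled were not stated in the labels. With 1 library per genotype there is no replicate check and no test, and a genotype cannot be told apart from any other difference between the seedling lots. Intervals of folds, levels and shares are at 95% and cover counting error only.

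Ethylene response factors carry a single AP2/ERF domain that binds DNA, and many recognise the GCC box in promoters of defence genes. Those of group IX mostly activate transcription. Those of group VIIIa carry an EAR motif, a short stretch that recruits co-repressors, and repress it. Several are themselves induced within minutes by wounding, touch, cold, pathogen patterns or reactive oxygen, and ERF6 and ERF104 are known substrates of the stress MAP kinases MPK6 or MPK3. In seedlings they are known for linking stress signals to growth and to jasmonate and ethylene responses.

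The libraries held 11.6 M reads (Col-0) and 12.2 M reads (FMO5-OE). FMO GS-OX5 (AT1G12140) had 28 reads in Col-0 against 1379 in FMO5-OE, 43.6-fold more after scaling (30.1 to 65.9), the direction the label names. Shoot and root transcripts were present in each library. The 3 of 3 shoot genes were lower in FMO5-OE, from 0.8 of the Col-0 level for RBCS1A to 0.897 for LHCB1.1. Of 3 root genes PYK10 was at 1.09-fold, NRT2.1 at 0.94 (0.567 to 1.56) and the aquaporin TIP2;3 was 2.37-fold lower (2.06 to 2.74). The part of these organ markers in the values below was not tested. In whole seedlings, fewer cells of a type and less RNA per cell cannot be told apart.

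Most of the factors were higher in the FMO5-OE library, and 3 activators of group IXb, ERF105, ERF6 and ERF104, had the highest folds of the 9 factors at 5 CPM or more. Together the 10 loci had 2492 reads in Col-0 against 4905 in FMO5-OE, that is 223 and 389 CPM, a 1.74-fold difference (1.66 to 1.83). At least 2-fold higher, by a log2 ratio of CPM + 1 of 1 or more with 5 CPM in the higher library, were ERF105 and ERF6, 2 of the 9 factors at 5 CPM, against 0.737% of 13019 nuclear loci (96 loci, or 136 with total count CPM). None of the 9 was at least 2-fold lower, against 0.346% of nuclear loci (45 loci, or 31 with total count CPM). A fold of 1.5 or more in CPM was reached by 5 of the 9, namely ERF105, ERF6, ERF104, ERF2 and ERF5, against 4.06% of nuclear loci. The counting interval lay wholly above 1 for 6 of the 9, against 17.4% of nuclear loci, and wholly below 1 for 1 of the 9, ORA47, against 21.0%. The log2 ratio was above 0 for 8 of the 9, against 47.8% of nuclear loci, and below 0 for 1, ORA47, against 52.2%. The median log2 ratio of the 9 was 0.73, beside -0.01 for all nuclear loci at 5 CPM or more, and 0.35 for the 5 left without ERF1A, ERF2, ERF5 and ERF6, which lie beside another of the 10.

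**Figure D1:**
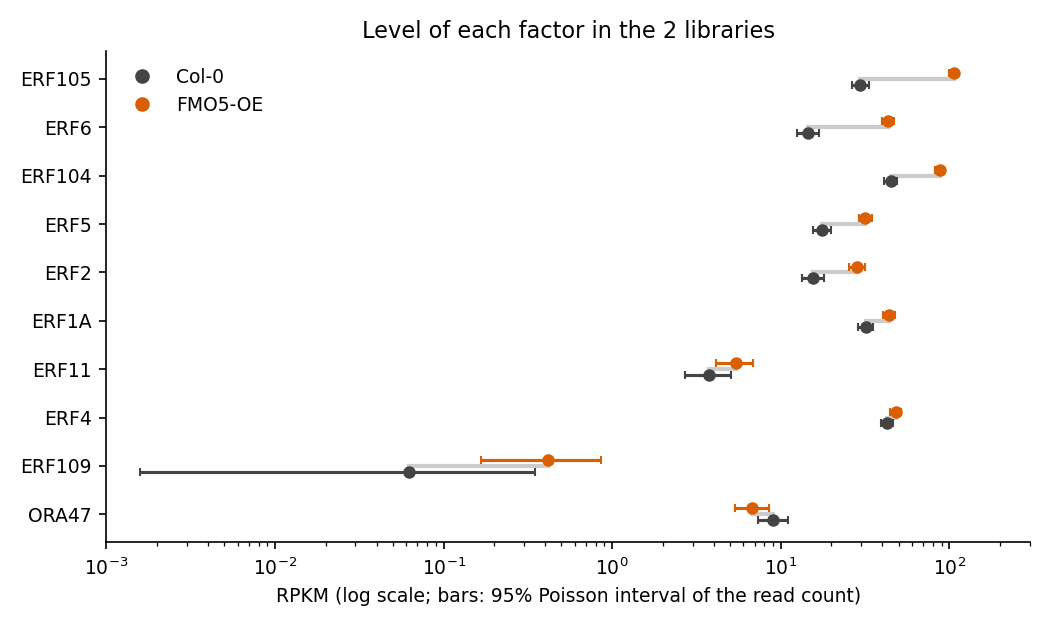
Level of each of the 10 factors in Col-0 (grey) and FMO5-OE (orange), as RPKM on a log axis, with bars for the 95% Poisson interval of the read count of 1 library. ERF105 went from 29.7 in Col-0 to 106 in FMO5-OE, while ERF4 had 42.5 and 48.0 and ORA47 9.05 and 6.78. RPKM is scaled to total reads, unlike the folds in the text, which use TMM factors.

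The 4 group IXb factors ERF5, ERF6, ERF104 and ERF105 had 1244 reads in Col-0 against 3208 in FMO5-OE, which is 111 and 254 CPM. Their summed level was 2.29-fold higher in FMO5-OE (2.14 to 2.44). ERF105 (AT5G51190), a factor linked to cold and freezing tolerance, had 286 reads in Col-0 against 1078 in FMO5-OE, that is 25.6 and 85.4 CPM. Its level was 3.34-fold higher in FMO5-OE (2.93 to 3.82), with a log2 ratio of 1.70, and it held place 14 of 13019 nuclear loci in the order of ratios. The reads covered 98.3% and 98.4% of the listed length of 833 bases. ERF105 is a gene of 1 exon on the minus strand of chromosome 5, chr5:20800473-20801437 in TAIR10.1, with 666 coding bases, 64 bases of 5′ UTR and 235 of 3′ UTR. On the plus strand AT5G51180 spans the same 965 bases with the 3′ UTR in its last exon. AT5G51180 had 13 reads in Col-0 against 29 in FMO5-OE. The first of its counted models was listed at 1687 bases, 1347 fewer than the annotated 3034. Whether strand was used in counting is not stated, so reads of the overlapping bases cannot be told apart between these genes, and the 3.34-fold of ERF105 carries that limit.

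ERF6 (AT4G17490), a MAP kinase target with a part in responses to reactive oxygen and osmotic stress, had 175 reads in Col-0 against 551 in FMO5-OE. That is 15.6 and 43.7 CPM, a 2.79-fold difference (2.35 to 3.33), log2 ratio 1.42, at place 25 of the 13019. The reads covered 89.8% and 90.2% of 1044 bases, and no annotated gene overlaps it. ERF6 has 1 exon on the minus strand at chr4:9752824-9754161 with 849 coding bases, and its annotated 5′ UTR has 340 bases. ERF104 (AT5G61600), a partner of MPK6 in the response to bacterial flagellin, had 541 reads in Col-0 against 1117 in FMO5-OE. At 48.4 and 88.5 CPM it was 1.83-fold higher (1.65 to 2.03), log2 ratio 0.86. ERF5 (AT5G47230), an activator close to ERF6 in sequence, had 242 and 462 reads, 21.6 and 36.6 CPM. It was 1.69-fold higher in FMO5-OE (1.44 to 1.98), log2 ratio 0.73, so the interval of ERF5 ended below that of ERF6. The intervals of ERF105 and ERF6 overlapped each other, and those of ERF104 and ERF5 lay below both.

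Bases before the annotated start of ERF6 are shown because it was at least 2-fold higher and no annotated gene overlaps it. They were read from the TAIR10.1 genome and run 5′ to 3′ on the strand of the gene. The window, chr4:9754162-9754411 on the minus strand, covers the 250 bases before the start. It has no capitals, since it held no match to any motif searched.
ERF6: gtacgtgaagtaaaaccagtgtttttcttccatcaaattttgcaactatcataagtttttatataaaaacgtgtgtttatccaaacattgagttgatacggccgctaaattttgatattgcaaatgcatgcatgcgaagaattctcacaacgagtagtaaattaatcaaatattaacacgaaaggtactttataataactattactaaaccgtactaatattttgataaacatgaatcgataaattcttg

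The sum of the group IXa activators was higher by less than that of group IXb. ERF2 (AT5G47220), which activates jasmonate-responsive defence genes, had 173 reads in Col-0 against 335 in FMO5-OE, that is 15.5 and 26.5 CPM. It was 1.72-fold higher in FMO5-OE (1.42 to 2.07), log2 ratio 0.74. ERF1A (AT4G17500, annotated as ERF-1), a GCC-box activator, had 375 and 546 reads, 33.5 and 43.3 CPM. It was 1.29-fold higher (1.13 to 1.48), log2 ratio 0.36, and its interval barely met that of ERF2. The IXa sum was 1.42-fold higher (1.28 to 1.59), an interval wholly below that of the IXb sum. Factor by factor the groups were not apart. The interval of ERF2 overlapped those of ERF5 (1.69-fold, 1.44 to 1.98) and ERF104 (1.83-fold, 1.65 to 2.03) of group IXb.

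**Figure D2:**
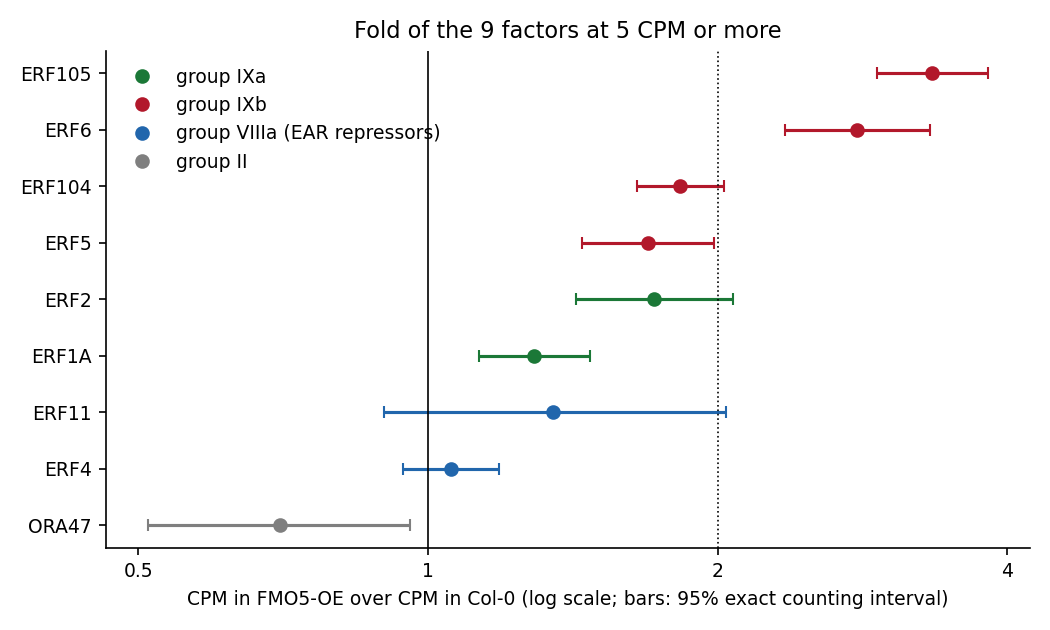
Fold of the 9 factors at 5 CPM or more, CPM in FMO5-OE over CPM in Col-0 on a log axis, with bars for the 95% exact counting interval and colours for the family group. ERF105 at 3.34 and ERF6 at 2.79 lie beyond the dotted line at 2, ERF4 at 1.06 lies at the solid line at 1, and ORA47 at 0.702 lies below it.

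The EAR repressors of group VIIIa had counting intervals that held 1. ERF4 (AT3G15210), a repressor of jasmonate and ethylene defence genes, had 561 reads in Col-0 against 669 in FMO5-OE. At 50.2 and 53.0 CPM its fold was 1.06 (0.943 to 1.18), so a difference was not detectable at this depth. ERF11 (AT1G28370), a repressor known to act on ethylene synthesis genes, had 42 and 64 reads, 3.76 and 5.07 CPM. Its fold of 1.35 had an interval of 0.901 to 2.04, which leaves the direction undetermined at this depth. Its reads covered 59.4% and 60.8% of 972 bases, the lowest share among the 9 in each library. The VIIIa sum was 603 reads in Col-0 against 733 in FMO5-OE, a fold of 1.08 (0.966 to 1.2). Among the 6 other VIIIa repressors, all at 1 CPM or more, 4 lay above 0 and 2 below, with a median log2 ratio of 0.05. ERF3 was at 0.878 of its Col-0 level (0.807 to 0.955) and ERF8 at 1.11-fold (0.936 to 1.31). ERF12, which lies 2669 bases from ERF11, had 15 and 17 reads.

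ORA47 and ERF109 come from other branches of the family. ORA47 (AT1G74930), of group II, activates jasmonate synthesis genes. It had 96 reads in Col-0 against 76 in FMO5-OE, that is 8.59 and 6.02 CPM, and was 1.43-fold lower in FMO5-OE (1.04 to 1.95), log2 ratio -0.45. It was the factor that lay lower in FMO5-OE. A 102-base gene of the other strand, AT1G74929, lies within it and had 2 and 4 reads. ERF109 (AT4G34410, annotated as RRTF1), of group X, responds to redox changes and links jasmonate to auxin synthesis in roots. It had 1 read in Col-0 and 7 in FMO5-OE, a ratio of 6.20 with an interval of 0.797 to 279.6. ERF109 overlaps AT4G34412 on the other strand over 301 bases, and that gene had 117 and 148 reads.

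Levels can be set side by side between genes as RPKM, reads scaled to gene length and library size. RPKM uses the total reads without TMM factors, so its ratios between libraries differ somewhat from the folds given above. It also uses the listed lengths, which are shorter than the annotated ones for some factors. ERF104 was listed at 1045 bases, against 1389 annotated, while ERF4 had 1141 in both. The order between genes depends on these lengths, which the intervals do not cover, and an order by annotated lengths was not computed. In Col-0, ERF104 (44.8 RPKM) and ERF4 (42.5) were the highest, with overlapping intervals. ERF1A (31.9) and ERF105 (29.7) followed, also overlapping, and then ERF5 (17.6), ERF2 (15.6) and ERF6 (14.5), where each neighbour in the order overlapped the next. ORA47 (9.05), ERF11 (3.74) and ERF109 (0.0625) came last and were apart from each other. In FMO5-OE the order was led by ERF105 (106 RPKM) and then ERF104 (87.6), whose intervals lay apart. ERF4 (48.0), ERF1A (44.0) and ERF6 (43.2) came next, each overlapping its neighbour, ahead of ERF5 (31.8) and ERF2 (28.5). ORA47 (6.78) and ERF11 (5.39) overlapped, and ERF109 (0.414) was last. ERF105 was thus at place 4 in Col-0 and place 1 in FMO5-OE, and ERF6 at places 7 and 5.

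Shares of the reads of all 10 factors do not depend on how the libraries are scaled. ERF105 took 11.5% of these reads in Col-0 (exact binomial 10.3% to 12.8%) and 22% in FMO5-OE (20.8% to 23.2%). ERF6 took 7.02% (6.05% to 8.10%) and 11.2% (10.4% to 12.2%). ERF4, the most-read of the 10 in Col-0, went the other way, with 22.5% in Col-0 (20.9% to 24.2%) and 13.6% in FMO5-OE (12.7% to 14.6%). ERF1A went from 15% to 11.1% and ORA47 from 3.85% to 1.55%, in each case with intervals apart. A lower share need not be a lower level, since ERF4 was at 1.06-fold (0.943 to 1.18) and ERF1A was 1.29-fold higher (1.13 to 1.48) in FMO5-OE. ERF104, ERF5, ERF2 and ERF11 had shares whose intervals overlapped, 21.7% and 22.8% for ERF104, 9.71% and 9.42% for ERF5, 6.94% and 6.83% for ERF2, and 1.69% and 1.3% for ERF11.

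**Figure D3:**
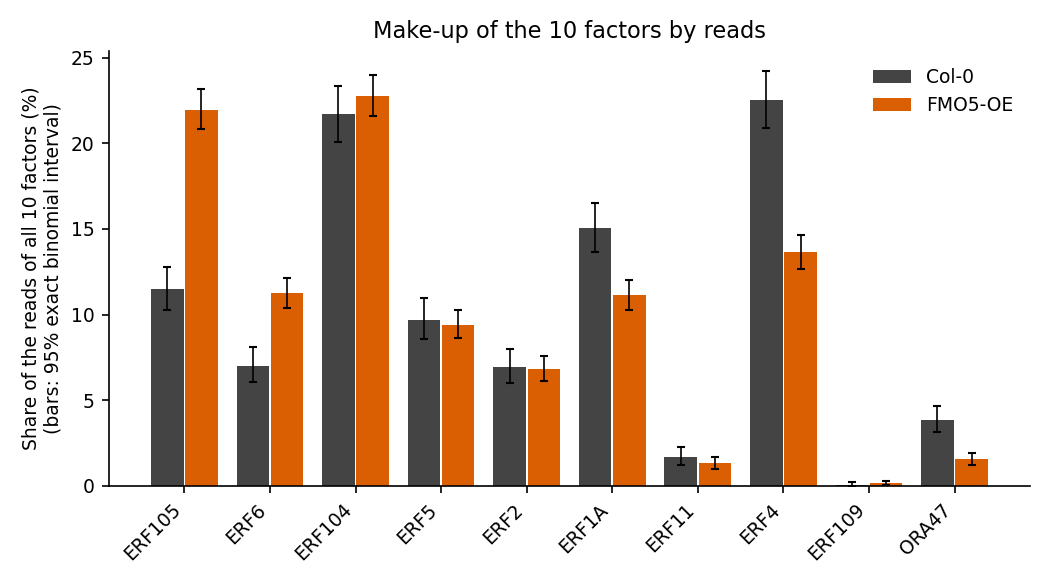
Share of the reads of all 10 factors that each took, in percent from 0, in Col-0 (grey) and FMO5-OE (orange), with bars for the 95% exact binomial interval. ERF105 took 11.5% in Col-0 and 22% in FMO5-OE, while ERF4 took 22.5% and 13.6%. A lower share need not be a lower level.

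Some of the 10 are neighbours and close relatives. ERF6 and ERF1A lie head to head on chromosome 4 with 5041 bases between them, and ERF2 and ERF5 lie head to head on chromosome 5 with 6924 bases between them. In coding sequence ERF5 was closest to ERF6 (71.3% identical over the alignment) and ERF1A to ERF2 (66.7%), across the chromosomes, followed by ERF104 and ERF105 (59.7%). Over all 45 pairs the identity ran from 42.1% to 71.3%. The longest exact stretch shared by any pair of transcripts was 29 bases, shorter than the 49-base reads. Of the 49-base stretches of the transcripts, none recurred in the genome for the other 9, and 4 of 1160 did for ORA47.

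The split of reads within pairs differed from pair to pair. Of the reads of ERF6 and ERF1A together, ERF6 took 31.8% of 550 in Col-0 (27.9% to 35.9%) and 50.2% of 1097 in FMO5-OE (47.2% to 53.2%). Of ERF6 and ERF5, ERF6 took 42.0% in Col-0 (37.2% to 46.9%) and 54.4% in FMO5-OE (51.3% to 57.5%). ERF105 took 34.6% of its sum with ERF104 in Col-0 (31.3% to 37.9%) and 49.1% in FMO5-OE (47.0% to 51.2%). For the head-to-head pair of ERF5 and ERF2, the share of ERF5 was 58.3% in Col-0 (53.4% to 63.1%) and 58.0% in FMO5-OE (54.5% to 61.4%). ERF2 took 31.6% of its sum with ERF1A in Col-0 (27.7% to 35.6%) and 38% in FMO5-OE (34.8% to 41.3%), with intervals that overlap. The 12 other annotated neighbours within 5 kb at 5 CPM or more had folds from 0.883 to 1.53, and 0 were at least 2-fold apart. The highest was ERF107, which lies 833 bases from ERF104.

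In the 250 bases before the transcript start, 6 motifs were searched on both strands, with GCCGCC as the GCC box, TTGACC and TTGACT as W boxes (sites bound by WRKY factors), CACGTG as the G box, CGCGTT as the rapid stress response element and CCGAC as the core of the dehydration-responsive element. The G box was found in 4 of the 10 windows (ERF1A, ERF2, ERF4 and ERF109), against 6.57% of 27443 promoters. A W box of either form was found in 5 of the 10 (ERF2, ERF4, ERF5, ERF11 and ERF105), against 28.4%. The windows of ERF5 and ERF105 lie partly in exons of the neighbours AT5G47229 and AT5G51180. The annotated gene span of ERF4 begins inside its window, at chr3:5121303, ahead of the transcript start used, and its W box lies within that span. The GCC box was found before ERF11 only, against 1.86% of promoters, the CCGAC core before ERF5 only, against 12.3%, and CGCGTT before 0 of the 10, against 2.67%. ERF6, ERF104 and ORA47 had no match in this window. They have the longest annotated 5′ UTRs of the 10, at 340, 364 and 388 bases, so their windows lie farthest from the coding start. Bases after the annotated start were not searched. No matches overlapped each other. These counts describe letters in a window and not binding.

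**Figure D4:**
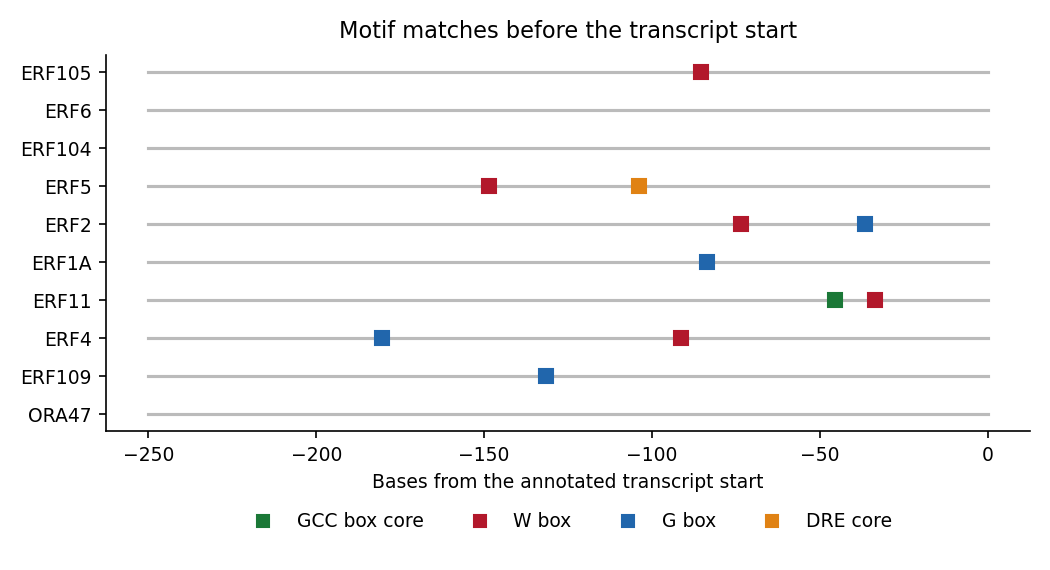
Motif matches (squares) in the 250 bases before the annotated transcript start of each of the 10 factors, with position in bases from the start on the horizontal axis. The G box stands before ERF1A, ERF2, ERF4 and ERF109, and the lines of ERF6, ERF104 and ORA47 hold no square.

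The windows of the relatives ERF1A and ERF2 are shown since they share a stretch around the G box, and that of ERF11 since it alone held a GCC box. Capitals mark the G box in ERF1A, a W box and then the G box in ERF2, and the GCC box and then a W box in ERF11. The ERF1A window is chr4:9759083-9759202 on the plus strand and the ERF2 window chr5:19172957-19173076 on the minus strand, each the 120 bases before the start. The ERF11 window, chr1:9956981-9957040 on the minus strand, covers bases 80 to 21 before the start of model 1. The nearest 20 bases were left out, since they lie in an exon of model 2.
ERF1A: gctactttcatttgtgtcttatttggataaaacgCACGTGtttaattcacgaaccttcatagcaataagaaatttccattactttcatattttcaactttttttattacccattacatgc
ERF2: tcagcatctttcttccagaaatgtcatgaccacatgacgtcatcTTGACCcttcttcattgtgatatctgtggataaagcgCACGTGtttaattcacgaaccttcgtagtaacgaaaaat
ERF11: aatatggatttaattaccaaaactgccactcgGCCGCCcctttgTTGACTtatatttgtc
The longest stretch common to the ERF1A and ERF2 windows is 26 bases, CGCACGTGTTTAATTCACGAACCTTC, which begins 88 bases before the start of ERF1A and 41 before that of ERF2. Among the 27443 promoters it was found in these 2.

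The rest of the AP2/ERF family lay about evenly on either side of 0. By the annotated AP2/ERF domain, 44 other family loci reached 5 CPM. Their median log2 ratio was -0.08, with 20 above 0 and 24 below, or 0.01 with 22 and 22 under total count CPM. In the order of all 53, ERF105 and ERF6 held places 1 and 2, ERF104 place 4, ERF2 place 6, ERF5 place 7, ERF1A 17, ERF11 18, ERF4 24 and ORA47 47. Of the 44, 1 was at least 2-fold higher and 1 at least 2-fold lower, against 0.737% and 0.346% of nuclear loci. RAV2, a repressor of flowering, was the locus at least 2-fold higher, at 2.34-fold (1.60 to 3.48) from 39 to 103 reads. AT2G22200 was the locus at least 2-fold lower, at 2.30-fold (1.75 to 3.03). By words of the annotated product, the definition chosen first, 41 others reached 5 CPM with a median of -0.11, but 42 of the 161 loci it took were AP2/B3-like.

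Closer relatives of the 10 split by subgroup. Of the 11 other group IX factors 5 reached 1 CPM. Higher in FMO5-OE were ERF107, a regulator of cuticular wax also called DEWAX, at 1.53-fold (1.45 to 1.62), ERF106 at 1.38-fold (1.24 to 1.54) and ERF13 at 2.53-fold (1.03 to 7.09), the last from 7 and 20 reads. ERF106 and ERF107 belong to group IXb. Lower were ORA59, an integrator of jasmonate and ethylene defence, at 0.803 of its Col-0 level (0.602 to 1.07), and ERF15 at 0.653 (0.509 to 0.837). Of the 7 other group X factors, 4 reached 1 CPM, among them RAP2.6 at 0.783 (0.531 to 1.15). All 4 lay below 0 with a median of -0.38, and Rap2.6L, at 0.979 (0.769 to 1.25), lay above 0 with total count CPM. Of the 14 other group II factors, 9 reached 1 CPM and 8 lay above 0 with a median of 0.08. DREB26 at 1.41-fold (1.26 to 1.57) and RAP2.10 at 1.35-fold (1.07 to 1.71) had the largest ratios among those at 5 CPM. The cold-responsive CBF factors, which share the AP2/ERF domain, had 1 and 3 reads (CBF1), 20 and 17 (CBF2) and 5 and 4 (CBF3).

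**Figure D5:**
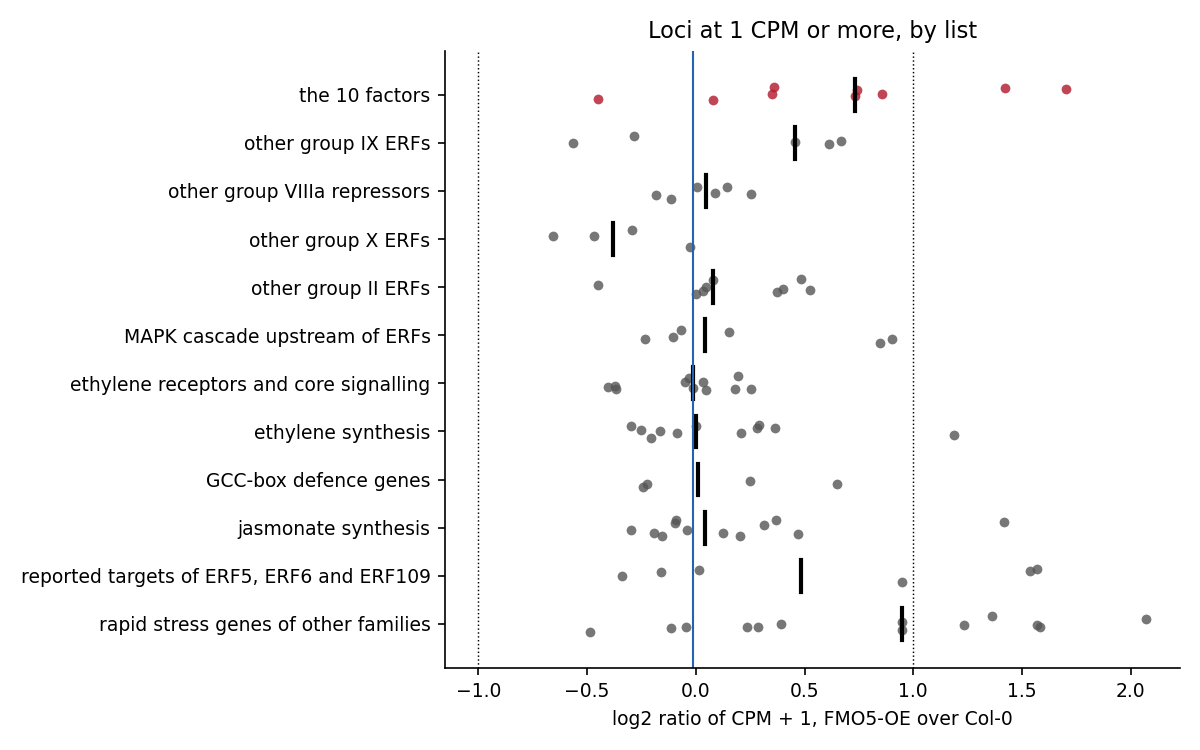
Log2 ratio of CPM + 1, FMO5-OE over Col-0, of each locus at 1 CPM or more, by list, with the 10 factors in red, a black bar for the median of a list, a blue line for the median of all nuclear loci and dotted lines at the 2-fold rule. The 9 factors at 1 CPM or more have a median of 0.73 and the rapid stress genes of other families 0.95, while ethylene signalling and synthesis lie near 0.

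Signalling genes upstream of the factors were mixed. In the MAP kinase list 3 of 6 lay above 0 with a median log2 ratio of 0.04, or 4 of 6 with total count CPM. MPK3, a stress-activated kinase whose own transcript is stress-inducible, had 1801 reads in Col-0 against 3661 in FMO5-OE, 1.80-fold higher (1.70 to 1.91). MKK9, a kinase upstream of it, was 1.92-fold higher (1.62 to 2.27), from 206 to 446 reads. The 11 ethylene receptors and core signalling genes had a median of -0.01, with 5 above 0 and 6 below, or 8 and 3 with total count CPM. At 5 CPM or more, the largest ratios in size were those of ETR2, a receptor, at 0.763 of its Col-0 level (0.634 to 0.916), and EBF1, an F-box protein that degrades EIN3, at 0.773 (0.723 to 0.826). Among 13 ethylene synthesis genes 11 reached 1 CPM, with 6 above 0 and 5 below (7 and 4 with total count CPM). Of the 8 at 5 CPM or more, 1 was at least 2-fold higher, against 0.737% of nuclear loci. It was ACS6, an ACC synthase phosphorylated by MPK6, at 2.32-fold (2.05 to 2.63) from 345 to 903 reads. ACS11 had the next largest ratio, 1.33-fold (0.982 to 1.81).

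Lists of known or reported target genes differed from each other. Of the 8 GCC-box defence genes 4 reached 1 CPM, 2 above 0 and 2 below, with a median of 0.01. HEL was 1.19-fold higher (1.1 to 1.29) and OSM34 was at 0.845 of its Col-0 level (0.804 to 0.887). PDF1.2a, the defensin often used as a readout of this branch, had 5 and 16 reads. Jasmonate synthesis genes, targets of ORA47, had 6 of 12 above 0 and a median of 0.04, or 8 of 12 with total count CPM. Of the 10 at 5 CPM or more, 1 was at least 2-fold higher, against 0.737% of nuclear loci. It was the lipoxygenase LOX4 at 2.99-fold (2.22 to 4.09), from 58 to 196 reads, and LOX3 was 1.42-fold higher (1.14 to 1.76). Of 6 genes reported as targets of ERF5, ERF6 or ERF109, 4 lay above 0, among them GA2OX6, a gibberellin oxidase gene, at 1.01-fold (0.786 to 1.31), where no difference was detectable. MYB51, a regulator of indole glucosinolates, was 2.99-fold higher (2.59 to 3.46) and the defence regulator WRKY33 2.99-fold (2.80 to 3.18). The zinc finger factor ZAT10 was 1.97-fold higher (1.70 to 2.27), and the auxin synthesis gene YUC2, a target of ERF109, was at 0.744 of its Col-0 level (0.482 to 1.14). ASA1, a tryptophan synthesis gene, was at 0.862 (0.525 to 1.41). WRKY33 and ZAT10 also stand in the next list, whose other loci were not chosen as targets of the factors. Rapid stress genes of other families had a median of 0.95, with 10 of 13 above 0, or 11 with total count CPM. Of the 12 at 5 CPM or more, 5 were at least 2-fold higher, against 0.737% of nuclear loci. These were WRKY40 (4.79-fold, 3.64 to 6.41), SZF1 (3.02-fold), WRKY33, WRKY53 (2.87-fold) and TCH4 (2.36-fold). ZAT10 and SZF2 also passed under other scalings, with log2 ratios of up to 1.04 and 1.03. ZAT12, a zinc finger factor of the same kind of response, was 1.43-fold lower (1.15 to 1.79).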

How the data were processed

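The deposited counts are whole reads per TAIR10 transcript model, named unique reads per the file headers, with TAIR10 taken from the submitters' processing notes. The authors' RPKM, which uses the listed length and the total in the header, was recomputed from the counts and matched within 0.5 RPKM for every listed model, and coverage is the authors' percent of the listed length. For the aligner, the counter and the use of strand, the sources used here give nothing. Models without reads are not listed and were taken as 0.

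Counts were summed per locus and scaled to CPM with TMM factors of 0.967 (Col-0) and 1.03 (FMO5-OE) from edgeR 4.0.16, so that 1 read equals 0.0894 and 0.0792 CPM. Folds are ratios of CPM with Clopper-Pearson intervals of the counts, and log2 ratios use CPM + 1. DESeq2 1.42.0 gave alternative size factors, under R 4.3.3. Other steps ran in Python 3.11.15 with scipy 1.17.1, Biopython 1.88, numpy 2.4.6, matplotlib 3.10.9 and pandas 2.3.3. The members, lists and rules were chosen with earlier results of these data known, so counts over them are descriptions. Named were the members, loci at least 2-fold apart and the 2 largest ratios at 5 CPM per list, and neighbours. Loci named otherwise (ERF106, ERF13, ORA59, PDF1.2a, ZAT10, GA2OX6, ASA1, YUC2, ZAT12 and the CBF factors) were chosen after their values were seen. Symbols, coordinates and sequences come from RefSeq TAIR10.1. Protein identity was not computed, and coding sequence was aligned in its place, a choice made after seeing the files. The letters of the bases before the start of ERF105 are not printed here.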

Additional observations from a re-analysis of the deposited data

How the results depend on the processing

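No paired analysis was possible because each genotype had only 1 library. Of 60 log2 ratios of the 10 factors under total count CPM, DESeq2 size factors, equal nuclear totals, pseudocounts of 0.1 and 5 and the model with most reads, 60 stayed within their counting interval and 0 changed sign. This was a weak check. Each factor has 1 listed model, so the last setting repeats its counts, and a rescaling shifts all loci nearly alike. The log2 ratio of ERF109 ran from 0.13 with a pseudocount of 5 to 1.79 with 0.1, within its wide interval. The number of factors at least 2-fold higher went from 2 to 1 with a 3-fold rule, and to 1 without ERF105, ERF109 and ORA47, which overlap genes of the other strand. The latter setting, the family by annotated domain and the AP2/ERF subfamilies were chosen after seeing the data. The median log2 ratio of the factors ran from 0.62 with a pseudocount of 5, and 0.62 with no minimum, to 0.82 with total count CPM. It was 0.35 without ERF1A, ERF2, ERF5 and ERF6, which leaves 5 factors. The median of all nuclear loci turned from -0.01 to 0.0805 with total count CPM and to 0.0745 with equal nuclear totals, as these scale every locus alike. Of 94 medians of the related lists, 87 stayed within their interval, and the other 7 were those of the CBF factors, where 1 locus reached 1 CPM. These intervals came from the ordered ratios of the loci in a list and do not measure counting error. In the shortest lists they ran from the lowest to the highest ratio. Some list medians turned in sign within those wide intervals. With no minimum, that of other group IX factors went from 0.45 to -0.03. At 20 CPM or more, the medians were -0.11 for other VIIIa repressors, -0.07 for MAP kinases, -0.13 for ethylene synthesis, -0.22 for GCC-box genes, -0.12 for jasmonate synthesis and 0.01 for ethylene signalling. Ethylene signalling was also above 0 with total count CPM (0.08) and equal nuclear totals (0.07), and GCC-box genes were at -0.0028 with a pseudocount of 5. Reported targets went from 0.48 to 1.54 at 20 CPM or more. The number of nuclear loci at least 2-fold higher and lower was 16 and 3 under the 3-fold rule, 56 and 21 at 20 CPM or more, and 42 and 17 with 5 as pseudocount, against 96 and 45. Depth limited ERF109 and ERF11, at 1 and 42 reads in Col-0.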

Other observations

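By subfamilies that the gene annotation names, the numbers of loci above and below 0 differed between branches of the AP2/ERF family. Over all nuclear loci at 5 CPM or more, 52.2% lay below 0. No such share was taken at 1 CPM, the minimum used for the subfamilies, and each holds few loci. In subfamily A-6, all 6 loci at 1 CPM or more of 8 annotated lay below 0, with a median log2 ratio of -0.55 and values from -1.09 to -0.20. In subfamily A-4, 10 of 12 lay below 0 with a median of -0.31. These counts were the same with total count CPM, where the medians were -0.46 and -0.24. In subfamily B-5, 5 of 6 lay below 0 with a median of -0.13, or 4 of 6 and -0.04 with total count CPM. Subfamily B-4 had 4 of 4 below 0 and a median of -0.38, or 3 of 4 and -0.31 with total count CPM. These repeat the values given above for the other group X factors and are not a further result. Lying even or higher were A-2 (2 of 4 above 0, median 0.09), A-5, with ORA47 (7 of 11, 0.03), B-2 (2 of 2, 0.17) and B-6 (2 of 3, 0.34). In A-1, 1 locus, CBF2, reached 1 CPM. Subfamily B-3, which holds 7 of the 10 factors by the annotation, ERF109 included, had 9 of 11 above 0 and a median of 0.67. That count includes the chosen factors. The 5 loci outside the 10 had 3 above 0, 2 below and a median of 0.45, the values given above for other group IX factors. Subfamily B-1, with ERF4 and ERF11, had 6 of 10 above 0 and a median of 0.04, or 4 of 8 and -0.06 without them. There was 1 library per genotype, so none of these values was tested.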
